A study of Mus musculus with 2 samples.

Results

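Sclerotome cells in which no Uncx transcript was captured were described in a single-cell RNA sequencing series of the aorta-gonad-mesonephros (AGM), the embryonic region around the dorsal aorta where blood stem cells first arise. They were chosen by their own counts. A cell had at least 2000 unique molecular identifiers (UMIs, each a captured transcript) and less than 10% of them from mitochondrial genes, and it was kept when its Pax1 and Pax9 UMIs summed to 2 or more and it had no Uncx UMI. The rule found 1656 of 16418 cells: 637 of 8253 in the wild-type library, 7.72% (exact binomial 95% interval 7.15 to 8.32%), and 1019 of 8165 in the knockout library, 12.5% (11.8 to 13.2%). Pax1, Pax9 and Uncx were thereby fixed by the rule, and their levels are given as a description of what was selected. All intervals below cover counting error only.

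Both libraries came from mouse embryos at embryonic day 11 (E11), dissociated with collagenase and counted with a droplet kit that reads the 3′ ends of transcripts. The WT library was PDGFRB +/+ and the KO library PDGFRB -/-, lacking the platelet-derived growth factor receptor β in every cell from conception. The colony was kept as heterozygotes on a C57BL/6J background. There was 1 library per genotype, so no difference between genotypes could be tested against the spread between embryos, and all values are set side by side. The libraries also differed in sex: Xist, the RNA of the inactive X chromosome, stood at 924 CPM in the WT sclerotome cells and at 0 in the KO cells (CPM, a gene's UMIs per 1000000 UMIs, both summed over a population), while 4 Y-linked genes summed to 0.0853 and 172 CPM. Genotype, sex and library therefore changed together and cannot be told apart. Each was loaded for 7000 cells. The libraries held 179743201 (WT) and 174597654 (KO) UMIs. The sclerotome cells without Uncx had a median of 12813 (WT) and 12963 (KO) UMIs and 3647 and 3723 genes, so their depth was close in both. Of the cells that passed the filter, 20 barcodes occurred in both libraries, among them those of 0 WT and 2 KO sclerotome cells without Uncx.

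The sclerotome is the ventral part of the somite, whose cells leave the epithelium, surround the notochord and neural tube and form vertebrae and ribs. Sonic hedgehog from the notochord and floor plate turns on the paired-box factors Pax1 and Pax9 there. Each segment then splits into an anterior compartment, marked by the T-box factor Tbx18, and a posterior compartment, marked by the homeobox factor Uncx, from which pedicles and proximal ribs form. The factor Sox9, with Sox5 and Sox6, switches on the cartilage matrix genes, Col2a1 first among them, and a dorsolateral stripe of sclerotome that expresses Scx gives rise to tendons.

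Promoters of 3 genes are printed because the results turn on them: Pax1, which chose the cells; AI646519, a non-coding gene on the other strand, among the genes that set these cells furthest apart from other mesenchyme; and the cartilage gene Epyc, which was higher in the KO cells. Each run is the 250 bases before the start that RefSeq gives for the gene in GRCm38.p6, 5′ to 3′ on the gene's own strand. Capitals mark every match to the 7-letter words AACAAAG or AACAATG or ATCAAAG or ATCAATG or TACAAAG or TACAATG or TTCAAAG or TTCAATG on either strand, which are forms of the motif that Sox factors bind.
Pax1 (chr2:147364744-147364993, plus strand): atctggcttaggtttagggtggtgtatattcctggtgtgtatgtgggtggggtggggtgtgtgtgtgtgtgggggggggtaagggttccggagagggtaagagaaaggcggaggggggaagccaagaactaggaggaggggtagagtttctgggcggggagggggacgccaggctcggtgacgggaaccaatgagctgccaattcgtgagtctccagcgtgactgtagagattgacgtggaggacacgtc
AI646519 (chr2:147362794-147363043, minus strand): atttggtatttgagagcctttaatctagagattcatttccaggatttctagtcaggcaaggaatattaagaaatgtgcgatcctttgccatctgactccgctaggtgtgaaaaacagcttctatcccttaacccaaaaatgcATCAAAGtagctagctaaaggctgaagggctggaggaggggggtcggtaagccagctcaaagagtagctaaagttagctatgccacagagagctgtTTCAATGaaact
Epyc (chr10:97643818-97644067, plus strand): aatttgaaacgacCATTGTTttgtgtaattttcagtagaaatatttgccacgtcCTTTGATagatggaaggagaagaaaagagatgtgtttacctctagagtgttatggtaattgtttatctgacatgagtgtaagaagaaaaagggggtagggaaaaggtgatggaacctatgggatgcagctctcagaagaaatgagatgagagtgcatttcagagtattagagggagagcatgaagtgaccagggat
The Pax1 window held 0 matches, and AI646519 and Epyc held 2 each. The Pax1 gene model also has a transcript that starts further upstream, so these windows are upstream of the RefSeq start only. At least 1 match was present in 7150 of all 32851 promoter windows of this length (21.8%), or for 6574 of 27025 genes (24.3%). Of the cartilage genes described below, 15 had a window and 4 of these (26.7%) had a match, namely Col9a1, Col9a2, Epyc and Sox6. Counted by window the share was 10 of 24 (41.7%), since some of these genes have several windows. The AI646519 gene (chr2:147357454-147362793, minus strand) and the Pax1 gene (chr2:147361925-147393295, plus strand) share 869 bases, and AI646519 starts 2201 bases before the main Pax1 transcript.

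Pax1 was the better detected of the factors that chose the cells. In the WT library 230 cells had Pax1 UMIs only, 59 had Pax9 only and 348 had both. In the KO library these numbers were 345, 117 and 557. The median Pax1 and Pax9 sum was 4 UMIs in WT and 5 in KO, with a highest value of 47 and 151, and 165 WT and 223 KO cells sat at the threshold of 2. Both libraries were thus dominated by cells with Pax1, many of them only just inside the rule. Pax1 summed to 239 CPM (230 to 248, WT) and 255 CPM (248 to 262, KO), and Pax9 to 92.0 CPM (86.6 to 97.7) and 94.4 CPM (90.1 to 98.9).

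The markers that the rule did not use fitted the sclerotome label for the population as a whole, with the exception of a cluster described below. Sox9 stood at 257 CPM (248 to 266) in the WT cells and 263 CPM (256 to 270) in the KO cells. Col2a1, the type II collagen of cartilage, stood at 576 CPM (562 to 590) and 623 CPM (612 to 634). Both were several times higher than in other mesenchyme, that is, cells with at least 2 UMIs of the platelet-derived growth factor receptor gene Pdgfra and none of Pax1 or Pax9 (2520 WT and 1599 KO cells), where Sox9 stood at 62.4 and 77.7 CPM and Col2a1 at 77.0 and 119 CPM. Levels were lower in cells below the threshold. Cells without Uncx whose Pax sum was 1, just outside the rule, numbered 454 in WT and 494 in KO and had Sox9 at 116 and 118 CPM and Col2a1 at 223 and 291 CPM. At a sum of 2, just inside, Sox9 stood at 180 and 207 CPM and Col2a1 at 400 and 480 CPM. At 3 to 5, Sox9 stood at 243 and 262 CPM and Col2a1 at 564 and 686 CPM. At 6 or more, Sox9 stood at 313 and 285 CPM and Col2a1 at 687 and 633 CPM, so that in KO Col2a1 was lower there than at 3 to 5. A defining factor was seen in few cells. Nkx3-2, the homeobox factor that acts with Sox9 in early sclerotome, had 9 UMIs in all WT cells and 32 in all KO cells, 0.767 and 1.67 CPM. It had a UMI in 1.26% (WT) and 3.14% (KO) of the cells, beside 0.238% and 0.563% of other mesenchyme. Of the red blood cells 0 of 730 and 0 of 210 had one, which allows a share of up to 0.504% and 1.74%.

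The absence of an Uncx UMI is a measured absence, and in the WT library it leaned on depth. When the cells with a Pax sum of 2 or more were ordered by their UMI count and cut into 4 groups of equal size, the share with an Uncx UMI was 34.6% in the shallowest group of the WT library, then 36.9% and 46.3%, and 47.8% in the deepest. In the KO library it was 40.9%, 42.1%, 40.7% and 47.2%, and the intervals of the shallowest (36.29 to 45.63%) and deepest group (42.47 to 51.95%) overlapped. A cell without Uncx and a cell whose Uncx transcripts were not captured cannot be told apart. Red blood cells, which should lack Uncx, had an Uncx UMI in 0.959% (WT) and 3.33% (KO) of cells at medians of 16562 and 19284 UMIs, that is, 7 of 730 and 7 of 210 cells. The source of these UMIs was not tested.

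**Figure D1:**
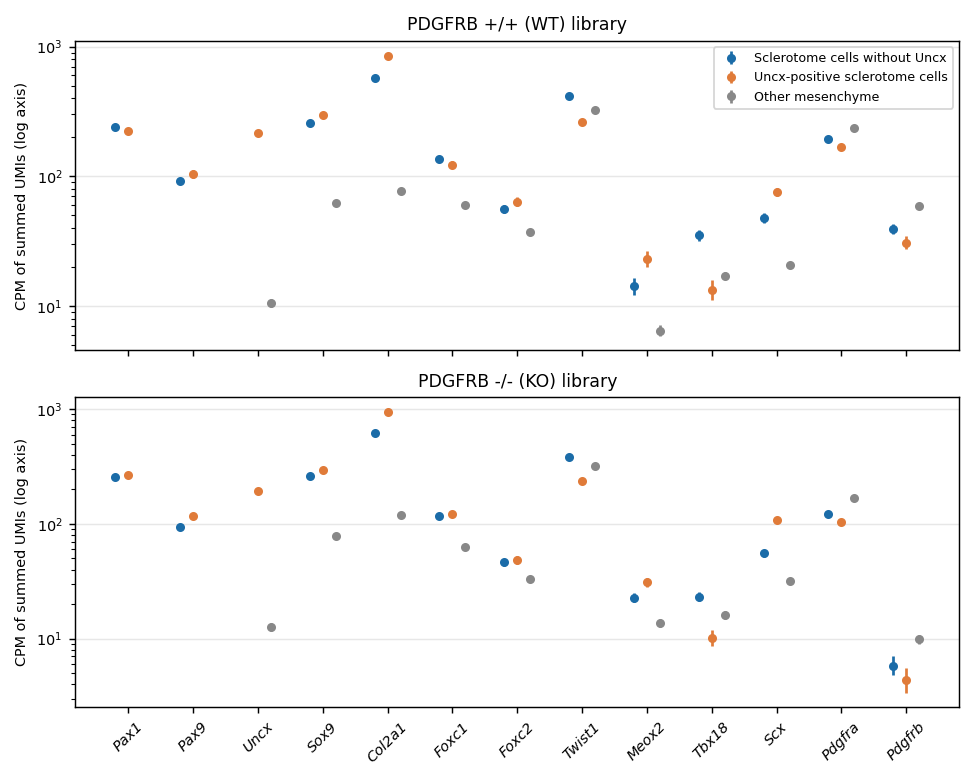
Levels of sclerotome genes in CPM (log axis) in sclerotome cells without Uncx, sclerotome cells with Uncx and other mesenchyme of the WT and KO library, 1 value per library with its exact Poisson 95% interval. Sox9 and Col2a1 are higher in both sclerotome populations than in other mesenchyme, and Tbx18 is higher in the cells without Uncx than in those with it.

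Set against other mesenchyme of the same library, the sclerotome cells without Uncx had higher levels of cartilage genes. Genes with at least 100 UMIs in both populations together were compared, and a gene was called past the fold when its CPM differed by a log2 ratio of 1 or more. In the WT library 2.06% of 12579 genes were higher and 5.12% lower, and in the KO library 1.82% of 12154 were higher and 2.86% lower. The cartilage list held 20 genes, from the Sox factors to collagens and their linkers. In WT, 12 of its 15 members with enough UMIs were higher and 1 was lower, with a median log2 ratio of 2.52, beside a median of -0.05 over all genes compared. In KO, 15 of 16 were higher, with a median of 2.34 beside -0.04. These shares lie above those of all genes, and Sox9 and Col2a1 among them are markers of the label itself. In WT Acan (104 UMIs here and 31 in other mesenchyme) met the UMI minimum only through the sclerotome cells. Acan therefore adds no support to the WT count, which was not remade without it. The other mesenchyme was the deeper population, at medians of 17929 and 18600 UMIs, and Pdgfra, which chose it, was itself lower in the KO library.

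Col2a1 was 2.90 higher on the log2 scale in WT and 2.39 in KO, and Sox9 2.04 and 1.76. Acan, the large proteoglycan of cartilage, was among the genes with the largest ratios, at 8.87 CPM against 0.481 CPM in WT and 20.1 against 2.01 in KO. Wwp2, a ubiquitin ligase whose gene hosts a microRNA of cartilage, stood at 170 CPM against 25.2 CPM in WT and 210 against 34.8 in KO. Cartilage collagen Col9a1 followed, with 232 against 70.5 CPM and 248 against 73.0 CPM. Factors shared by somite and other mesenchyme separated the populations less. Of 7 sclerotome transcription factors with enough UMIs, 3 were higher in WT and 2 in KO. Foxc1, a forkhead factor of paraxial mesoderm, stood at 137 CPM (WT) and 118 CPM (KO) against 60.5 and 62.4 CPM, and Twist1, a general factor of mesenchyme, at 415 and 386 CPM against 325 and 318 CPM.

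Outside the lists, AI646519 and Chad were among the genes with the largest ratios in both libraries. AI646519 stood at 52.4 CPM (48.3 to 56.7, WT) and 58.2 CPM (54.9 to 61.8, KO) against 1.36 and 1.66 CPM, log2 ratios of 5.26 (4.94 to 5.60) and 5.13 (4.79 to 5.50). It had at least 1 UMI in 336 of the 637 WT cells and 557 of the 1019 KO cells. Since AI646519 lies opposite Pax1 and overlaps it, and the sources used here do not say whether the counting used strand, reads of the 2 genes cannot be told apart where they overlap. Chad, the matrix protein chondroadherin, stood at 7.84 and 10.6 CPM against 0.140 and 0.568 CPM, log2 ratios of 5.81 (4.83 to 6.99) and 4.22 (3.61 to 4.90). It had 92 UMIs against 9 in WT and 203 against 24 in KO. Chad thus met the UMI minimum only through the sclerotome cells, and its place among the largest ratios adds no support. Adgrg6, an adhesion receptor needed for normal spine cartilage, stood at 20.9 CPM (WT) and 32.5 CPM (KO) against 1.69 and 2.77 CPM. Foxa1, a forkhead factor of endoderm and floor plate, was at 8.19 CPM in WT against 0.109 CPM, a log2 ratio of 6.24 (5.14 to 7.59), from 96 UMIs in 61 cells. Other mesenchyme had 7 Foxa1 UMIs in WT, so Foxa1 too met the minimum there only through the sclerotome cells. In KO it had 94 UMIs in 71 cells and stood less far apart, since its KO to WT log2 ratio was -0.735 here and 2.45 in other mesenchyme. Blood genes were also among the 10 largest WT ratios, but 97.7% of the Pf4 UMIs, 98.8% of those of Ctla2a and 100% of those of Gp5 lay in 5 cells. In KO the germ cell genes Dppa5a and Dppa3 had ratios of 6.91 and 6.84 (4.96 to 9.91), with 98.2% and 100% of their UMIs in 1 cell.

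Lower genes included members of the retinoic acid, Wnt and interstitial matrix lists. Of 11 retinoic acid genes 2 were lower in WT and 3 in KO, with 1, Cyp26b1, higher in KO, and the medians were -0.16 and -0.41. Aldh1a2, which makes retinoic acid, stood at 47.8 CPM (WT) and 49.2 CPM (KO) against 157 and 156 CPM. The Wnt list, ligands with their soluble inhibitors and targets, had 5 of 17 members lower in WT and 7 of 17 in KO. Its target Axin2 stood at 11.1 and 9.68 CPM against 21.5 and 21.2 CPM, and its inhibitor Frzb at 8.44 and 9.73 CPM against 24.0 and 25.0 CPM. Msx1, a homeobox factor of limb bud and body wall mesenchyme, stood at 9.12 and 6.12 CPM against 65.2 and 41.4 CPM. Of the interstitial matrix genes, 8 of 20 were lower in WT with a median of -0.67, and in KO 1 of 20 with a median of -0.04. Without the cells that held markers of other cell types the medians were -0.01 and 0.02. Col1a1, the main collagen of connective tissue, was alike in the sclerotome cells without Uncx of both libraries, 229 CPM (WT) and 236 CPM (KO), and stood at 787 and 388 CPM in other mesenchyme.

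The ligands and receptors of the signals that shape the somite were expressed at a range of levels. Ptch1, the hedgehog receptor that is also a target of the pathway, stood at 139 CPM in the WT cells and 148 CPM in the KO cells, against 81.6 and 128 CPM in other mesenchyme. Gas1, a hedgehog co-receptor, was lower than there, at 146 and 187 CPM against 302 and 298 CPM. Id3, a target of bone morphogenetic proteins, was abundant at 762 and 702 CPM beside 644 and 643 CPM, and the ligand Bmp4 stood at 84.9 and 79.6 CPM beside 101 and 105 CPM. Fgfr1, the main fibroblast growth factor receptor of mesenchyme, stood at 102 and 108 CPM beside 91.0 and 102 CPM. Wnt5a, a ligand of the axis and limb, stood at 58.2 and 82.7 CPM beside 73.7 and 95.3 CPM. Of these genes only Gas1 was past the fold, in WT with a log2 ratio of -1.05, and in KO its ratio was -0.67.

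The cells without Uncx were next set against the sclerotome cells that had it (Pax sum of 2 or more, at least 1 Uncx UMI), which numbered 450 in WT and 760 in KO at medians of 15003 and 13520 UMIs. Uncx itself stood at 218 CPM (WT) and 192 CPM (KO) in the positive cells and, by the rule, at 0 in the others. The populations were close otherwise: in WT 1.21% of 10003 genes were higher and 0.34% lower in the cells without Uncx, and in KO 0.593% of 11124 were higher and 0.53% lower. Many of the largest ratios belonged to genes of other cells, such as the platelet genes Rgs18 and Gp9 in WT and the germ cell gene Dppa3 in KO, with 100%, 99.4% and 100% of their UMIs in 5 cells or fewer.

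Tbx18, the anterior marker, was higher in the cells without Uncx in both libraries. It stood at 35.0 CPM (31.7 to 38.6) against 13.3 CPM (11 to 15.9) in WT, a log2 ratio of 1.40 (1.10 to 1.70), and at 23.2 CPM (21.1 to 25.4) against 10.2 CPM (8.64 to 11.9) in KO, where the log2 ratio was 1.19 (0.92 to 1.46). The order of the populations was the same in each library, and the KO level was the lower one in both populations. Other genes with a known difference between the compartments showed less of a gap. Efnb2, a guidance ligand of the posterior compartment, stood at 43.1 CPM without Uncx and 37.0 CPM with it in WT, and at 33.2 and 35.1 CPM in KO. Sema3f, a repellent for neural crest cells, stood at 16.6 and 17.5 CPM in WT and 16.4 and 16.6 CPM in KO. The Notch ligand Dll1 was below 1 CPM in all 4 populations.

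Crabp1, a retinoic acid binding protein abundant in loose mesenchyme, was likewise higher without Uncx. It stood at 542 CPM (529 to 556) without Uncx and 263 CPM (252 to 274) with it in WT, and at 649 CPM (638 to 661) and 303 CPM (294 to 312) in KO. Twist1 was at 415 against 262 CPM in WT and at 386 against 236 CPM in KO. The cytoskeletal gene Acta2, abundant in smooth muscle, was at 206 against 120 CPM and at 250 against 115 CPM. Most of it lay in 1 cluster of cells, described below, with genes of several other cell types, where it stood at 469 CPM (WT) and 619 CPM (KO), while it was at most 59.9 CPM in the other clusters.

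Most cartilage genes, and Scx and Tnc, went the other way. Col2a1 stood at 576 CPM without Uncx against 846 CPM (828 to 866) with it in WT, a log2 ratio of -0.56, and at 623 against 940 CPM (925 to 955) in KO, where the log2 ratio was -0.59. Sox9 was closer, with log2 ratios of -0.21 and -0.17. Over the cartilage list the median was -0.54 in WT, where the intervals of 13 of 15 genes lay below 0, and -0.41 in KO, where those of 14 of 16 did, beside 10.8% and 7.57% of all genes. Past the fold were 1 cartilage gene in WT, Cnmd, and 0 in KO. Scx, the factor of tendon progenitors, stood at 47.8 against 75.5 CPM in WT and 55.2 against 108 CPM in KO. Tnc, a matrix glycoprotein of tendon and cartilage sheaths, stood at 8.19 CPM (6.63 to 10.0) against 30.2 CPM (26.8 to 34.0) in WT and at 10.4 CPM (9.02 to 12.0) against 34.1 CPM (31.3 to 37.2) in KO. Uncx-positive cells thus had the higher level of each of these 4 genes in both libraries, except that for Sox9 in KO the log2 ratio turned to 0.19 among cells under 5% mitochondrial UMIs. Of the tendon list only Tnc passed the fold, 1 of 3 members in WT and 1 of 5 in KO. Nog, an antagonist of bone morphogenetic proteins, was at 4.86 against 15.1 CPM in WT and 7.74 against 14 CPM in KO, and Meox1, a homeobox factor of the somite, at 35.6 against 67.1 CPM in WT and 48.5 against 63.1 CPM in KO.

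Some genes had different gaps in the libraries, and the difference between the libraries was not tested. Dkk1, a Wnt inhibitor, was 11.4 CPM without Uncx and 2.33 CPM with it in WT, and 5.81 and 3.55 CPM in KO. Pdgfa, a ligand of PDGFRα, was 25.5 and 12.3 CPM in WT but 28.5 and 31.4 CPM in KO. How far single cells carried the UMIs of Dkk1 and Pdgfa was not examined. Platelet genes also had different gaps in the libraries, with Pf4 at 775 and 12.2 CPM in WT and 24.5 and 454.5 CPM in KO. Hoxc8, a positional gene of the thoracic level, was lower without Uncx in both, at 331 and 498 CPM in WT and 245 and 314 CPM in KO.

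**Figure D2:**
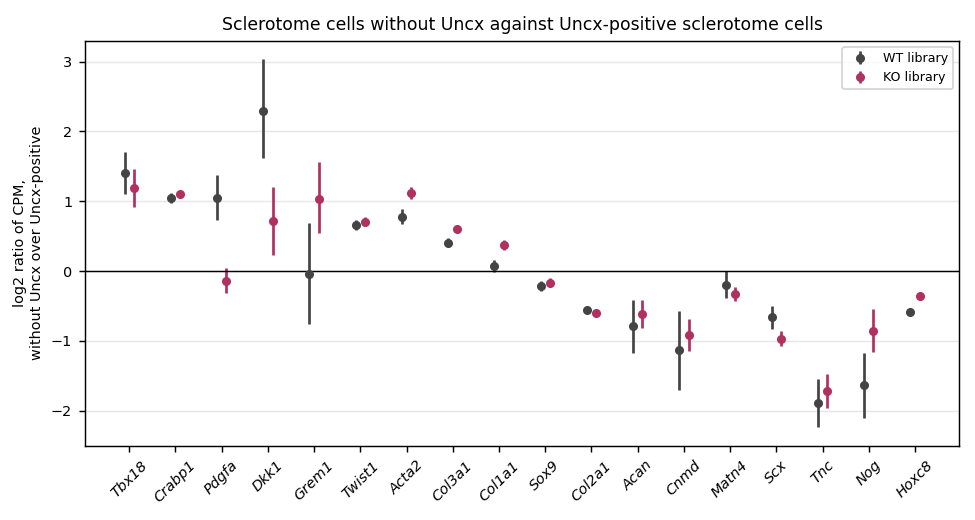
Log2 ratio of the level in sclerotome cells without Uncx to that in sclerotome cells with Uncx, for the WT and the KO library, with exact 95% intervals for counting error. Tbx18 and Crabp1 lie above 0 and Tnc, Scx and Col2a1 below 0 in both libraries.

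Markers of other cell types were also present in the population. Of 5 muscle progenitor markers all were detected, summing to 45.2 CPM (WT) and 60.0 CPM (KO), with Myog the most abundant at 26.0 and 36.0 CPM. The 5 smooth muscle markers summed to 371 and 419 CPM, most of it Acta2. Splanchnic markers summed to 141 CPM (WT) and 72.6 CPM (KO), led by Foxf1 at 79.0 and 50.3 CPM, and Nkx2-5 was at 0 in KO. Macrophage markers summed to 33.1 and 16.1 CPM, led by C1qa, and endothelial markers to 29.5 and 54.4 CPM, led by Egfl7. Coelomic and gonadal markers summed to 36.6 and 29.2 CPM, led by Wt1, epithelial markers to 36.4 and 22.6 CPM, led by Krt18, and autonomic neuron markers to 28.2 and 34.5 CPM. Dermis markers summed to 637 and 748 CPM, nearly all of it Crabp1, and tendon markers to 50.1 and 61.7 CPM, nearly all of it Scx.

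Markers of the neural tube and notochord, the nearest neighbours of the sclerotome, had low sums. Neural tube markers summed to 4.52 and 11.3 CPM, mostly Nkx6-1, with Pax6 and Olig2 at 0 in both libraries and Neurog2 at 0 in WT. Of the notochord markers, T and Noto were at 0 in WT and Noto in KO, while Shh had 44 UMIs in WT, 3.75 CPM. Against all other cells of the same library, Nkx6-1 was past the fold on the higher side in both libraries. Shh was so in WT, with a log2 ratio of 2.47, and Sox2 was past the fold on the lower side in WT. Red blood cell transcripts were the largest foreign part. The 7 erythroid markers summed to 9247 CPM (WT) and 1434 CPM (KO), led by the embryonic globin Hbb-y at 6042 and 930 CPM, and 1.88% of WT and 0.294% of KO cells had at least 5% of their UMIs from haemoglobin genes. The part of these foreign transcripts in the differences below was not tested beyond leaving out the cells that held them and subtracting free RNA.

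Clustering all 1656 cells together, after thinning each to 2000 UMIs and leaving Pax1, Pax9, Uncx, sex-linked and cell cycle genes out of the variable genes, gave 8 clusters. The largest, of 336 cells, had a median of 27634 UMIs, more than any other, and was led by genes of several other cell types, among them C1qb, Ttn, Actc1 and Acta2. Whether these were sclerotome cells captured together with other cells was not tested. The next cluster held 308 cells led by Cxcl13, Efemp1 and Meox1 and had Tbx18 at 57.9 CPM (WT) and 25.7 CPM (KO). A cluster of 240 cells led by Fmod, Pfkp and Ndnf had Sox9 at 474 and 497 CPM and Col2a1 at 1244 and 1090 CPM. Clusters of 239 and 189 cells were led by mitosis genes such as Aspm and Kpna2 and by histone genes of S phase. A cluster of 148 cells was led by Dcn and Prss12, and the last, of 79 cells, had a median of 3242 UMIs and was led by Hist1h3e and Hist1h4d. In this last cluster Pax1 stood at 757 and 712 CPM. The rule asks for at least 2 Pax1 and Pax9 UMIs, which gives a high CPM at this depth, so no conclusion is drawn from that level. Col2a1 stood there at 9.12 and 33.9 CPM, below its level in other mesenchyme, so that the cells of this cluster did not share that marker of the label. At this depth these levels rest on few UMIs.

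The cluster of 117 cells was chondrogenic-like: all 9 chondrogenic markers fixed for naming were at least 2-fold higher in it than in the other cells. Sox9 stood there at 1039 CPM (WT) and 873 CPM (KO), Col2a1 at 2357 and 2583 CPM, and Acan at 208 and 166 CPM, whereas Tbx18 was at 10.4 and 6.33 CPM. The Tbx18 levels rested on 1 WT and 9 KO UMIs, and the WT Acan level on 20 UMIs. The cluster held 8 WT and 109 KO cells. Since cartilage genes themselves define the cluster and differed between the libraries, these sizes are given as a description and were not compared. With 3 other random draws of the thinning, 9, 11 and 9 clusters were found, with adjusted Rand indices to the first of 0.365, 0.321 and 0.333, and the cluster with the 9 chondrogenic markers held 14 WT and 108 KO, 19 WT and 77 KO, and 22 WT and 106 KO cells. The cells in the clusters thus depended on the draw.

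The KO and WT cells were then compared, which addresses what the loss of the receptor goes with in these cells. Pdgfrb, the targeted gene, stood at 39.3 CPM (35.8 to 43.1, WT) and 5.81 CPM (4.78 to 6.99, KO), a log2 ratio of -2.76 (-3.07 to -2.46). In the sclerotome cells with Uncx and in other mesenchyme the ratio was -2.83 and -2.60. A Pdgfrb UMI was present in 37.7% of the WT and 9.42% of the KO cells without Uncx, beside 3.42% and 1.43% of red blood cells, so transcripts were fewer in the KO library but not at 0. A 3′ count does not show whether they came from the altered allele. Pdgfra, which encodes the sister receptor, was also lower in KO, 121 CPM (116 to 126) beside 194 CPM (186 to 202) in WT, and the Uncx-positive cells had 103 and 170 CPM. Of the PDGF list 1 of 4 members was past the fold, Pdgfrb itself. The share of sclerotome cells without Uncx in all cells was higher in KO, as given above, and the sclerotome cells with Uncx were also more numerous there.

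Across the genome, 152 of 10915 genes (1.39%) were higher in KO and 141 (1.29%) lower, with a median log2 ratio of 0.04. Among the Uncx-positive cells 1.38% of 10333 genes were higher and 0.755% lower, and in other mesenchyme 1.2% of 13135 were higher and 2.41% lower. Without the cells that held markers of other cell types, 86 genes were higher and 59 lower in KO among the cells without Uncx. The 3 comparisons came from the same pair of libraries and are not independent.

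Cartilage genes were higher in KO. Of 16 members of the list with enough UMIs, 8 were higher in KO and 0 lower, beside 1.39% of all genes. The intervals of 15 lay above 0, beside 23% of all genes, and the median log2 ratio was 0.88. The 8, the 15 and the median include Epyc (19 WT and 124 KO UMIs) and Cnmd (44 and 263). They also include Papss2 (69 and 298) and Hapln1 (90 and 315). Col11a2, counted with them, had a WT level between those of Papss2 and Hapln1. All of these genes met the UMI minimum only through the KO cells. Epyc, Cnmd, Papss2, Hapln1 and Col11a2 therefore add no support to these counts, which were not remade without them. With the rule applied to cells thinned to 2000 UMIs the median was 0.37. Col9a3, a chain of type IX collagen, stood at 82.0 CPM (76.8 to 87.3, WT) and 169 CPM (163 to 175, KO), a log2 ratio of 1.04 (0.94 to 1.15). Matn4, the matrix linker matrilin-4, stood at 39.1 CPM (35.6 to 42.8) and 81.9 CPM (77.9 to 86.1), a log2 ratio of 1.07 (0.92 to 1.22). Acan stood at 8.87 CPM (7.25 to 10.8) and 20.1 CPM (18.1 to 22.2), a log2 ratio of 1.18 (0.86 to 1.51). Cnmd, the cartilage glycoprotein chondromodulin, stood at 3.75 CPM (2.73 to 5.04) and 13.8 CPM (12.2 to 15.5), a log2 ratio of 1.88 (1.41 to 2.37). None of these 4 pairs of intervals overlapped.

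The other 4 genes of the group that passed the fold stood below 20 CPM in both libraries. Like Cnmd, they reached the minimum of 100 UMIs only through the KO cells. Epyc, a small proteoglycan of growth cartilage, stood at 1.62 and 6.49 CPM, from 19 WT and 124 KO UMIs (log2 ratio interval 1.30 to 2.78). Papss2, which makes the sulfate donor for proteoglycans, stood at 5.88 and 15.6 CPM (1.41), Hapln1, the link protein of aggrecan, at 7.67 and 16.5 CPM (1.10), and Col11a2, a chain of type XI collagen, at 5.97 and 12.0 CPM. Sox9, Col2a1 and Col9a1 had smaller ratios, which varied with depth. Sox9 had a log2 ratio of 0.03 (-0.03 to 0.10) and Col2a1 0.11 (0.07 to 0.16), and Col9a1 had 0.10. In cells under 10000 UMIs, 209 WT and 322 KO, they had 0.39 (0.22 to 0.55), 0.47 (0.37 to 0.58) and 0.47 (0.31 to 0.63), and in the deeper cells -0.03, 0.04 and 0.02. That split was chosen after seeing the data. Sox6, which works beside Sox9, was in between at 23.3 and 39.2 CPM. Col9a2 stood at 80.3 and 122 CPM and Col11a1 at 169 and 258 CPM. In the Uncx-positive cells 6 of 16 members were higher with a median of 0.77, and in other mesenchyme 6 of 16 with a median of 0.60, so cartilage genes were higher in KO outside the cells without Uncx as well. In other mesenchyme Hapln1 had a ratio of -0.75.

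A larger share of the KO cells had transcripts of Acan, Cnmd, Matn4 and Col9a3. With every cell thinned to 2000 UMIs, 1.41% of the WT cells and 3.63% of the KO cells had an Acan UMI (9.89% and 14.1% unthinned), and 0.942% and 2.85% had a Cnmd UMI (4.55% and 10.1%). For Matn4 the shares were 9.11% and 15.1% (28.6% and 43.0%), and for Col9a3 15.4% and 22.2% (44.3% and 49.3%). Red blood cells, at the median depths given above, had these transcripts in at most 1.78% (WT) and 3.81% (KO) of cells unthinned, both for Col9a3. In the Uncx-positive cells the thinned Acan share was 5.333% (WT) and 4.605% (KO), while the Cnmd, Matn4 and Col9a3 shares were larger in KO. In the cells without Uncx the thinned intervals overlapped for Acan (0.648 to 2.665% and 2.569 to 4.97%) and Cnmd (0.346 to 2.039% and 1.914 to 4.062%). Those of Matn4 and Col9a3 did not. Unthinned, the intervals of Acan and Col9a3 overlapped. For Col2a1 the thinned share was not larger in KO, at 55.9% (WT) and 53.6% (KO) (88.2% and 86.3% unthinned). For Sox9 it was 36.3% and 37.1% (77.6% and 75.4%). Leaving out the chondrogenic-like cluster, a choice made after seeing the data, the list's median was 0.21, with Acan at 0.21 (-0.18 to 0.62), Cnmd at 0.72 (0.16 to 1.30), Matn4 at 0.72 (0.56 to 0.88) and Col9a3 at 0.47 (0.35 to 0.58), while Sox9 and Col2a1 were then lower in KO, at -0.23 and -0.27, as were Col9a1 at -0.33 (-0.40 to -0.25) and Wwp2 at -0.16 (-0.25 to -0.08). With free RNA subtracted Sox9 was at -0.17 and Col2a1 at -0.10. The share of free RNA assumed for this was unequal, at 24.4% in the WT cells and 7.76% in the KO cells. It was set from haemoglobin UMIs summed over each population, cells rich in haemoglobin included. The median cell had 0.0405% (WT) and 0.0166% (KO) haemoglobin UMIs, beside 4.08% and 2.1% in the free RNA. The assumed share can thus be too high for most cells, and no conclusion is drawn from the values after subtraction. Without the cluster Col9a2 was at 0.09 (-0.03 to 0.21) and Epyc at 0.43 (-0.39 to 1.31), so that their intervals took in 0. Papss2 was at 0.74 (0.30 to 1.20) and Hapln1 at 0.68 (0.31 to 1.06). The ratios of Col9a3, Matn4, Acan, Cnmd, Epyc, Papss2 and Hapln1 were thus all short of the fold without it. The cluster is defined by these genes and held mostly KO cells, so leaving it out lowers their ratios by construction.

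**Figure D3:**
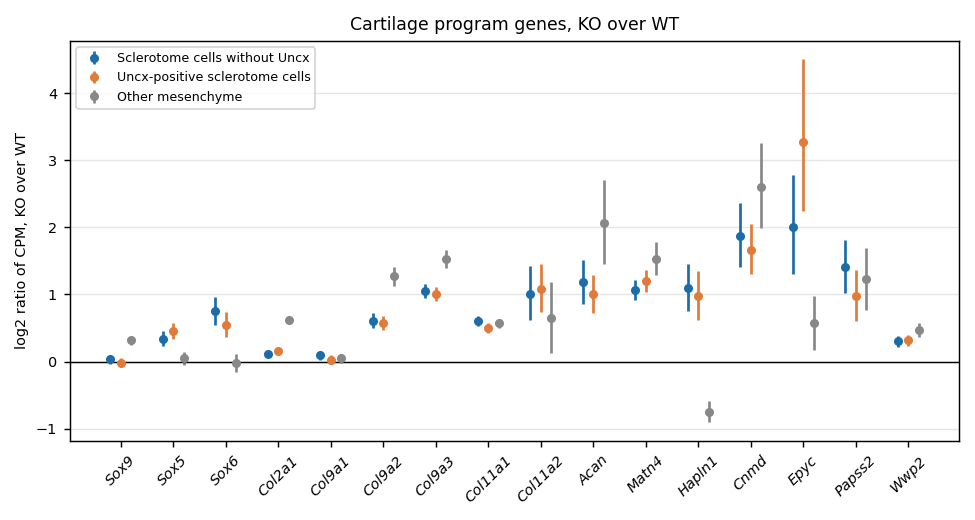
Log2 ratio of the KO to the WT level (vertical axis) of 16 cartilage genes in sclerotome cells without Uncx, Uncx-positive sclerotome cells and other mesenchyme, each point with its exact 95% interval for counting error. In the cells without Uncx, Cnmd and Acan have ratios of 1.88 and 1.18 and Sox9 sits near 0, and Hapln1 is the gene whose whole interval lies below 0 in other mesenchyme.

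Among the other pathway lists few members passed the fold. None of the 7 sclerotome factors passed the fold (median -0.08), with Foxc1 at 137 CPM (WT) and 118 CPM (KO) and Meox1 at 35.6 and 48.5 CPM. Of the hedgehog list, which carries the signal that makes sclerotome, 0 of 13 members passed (median 0.14): the receptor and target Ptch1 stood at 139 and 148 CPM and the effector Gli1 at 18.1 and 21 CPM. Its forkhead targets Foxf1 and Foxf2 were lower, at 79.0 and 50.3 CPM and at 36.5 and 24.5 CPM, log2 ratios of -0.65 and -0.57, beside 0.17 and 0.31 in other mesenchyme. The summed splanchnic markers, which include Foxf1, were also lower in the KO cells, as given above. Without the largest cluster Foxf1 had -0.82 (-0.97 to -0.67) and Foxf2 -0.84 (-1.07 to -0.60). In cells under 10000 UMIs Foxf1 had -1.26 (-1.60 to -0.93), past the fold, and Foxf2 -0.51 (-1.08 to 0.06). The part of splanchnic markers in this was not tested further. Of the BMP list 0 of 20 passed (median 0.05), of the Wnt list 0 of 15 (0.11), of the FGF list 0 of 9 (0.39), of S phase genes 0 of 15 (-0.03) and of G2 and M phase genes 0 of 15 (-0.20). The intervals of 13 of the 15 G2 and M phase genes lay below 0, beside 15.3% of all genes, and those of 14 of 15 in the Uncx-positive cells, beside 15.8%, while in other mesenchyme 7 lay above 0 and 5 below, with a median of 0.03. Tendon progenitor genes were 0 of 4 (0.37), and the genes of the segment compartments 0 of 3. Marker lists of other cell types did differ: 7 of 7 erythroid markers were lower in KO (median -2.87), 3 of 5 endothelial markers, Pecam1, Cdh5 and Emcn, were higher (1.17), and 2 of 4 splanchnic markers, Tcf21 and Barx1, were lower (-0.89). Without the largest cluster Tcf21 had a ratio of -0.47 (-0.94 to 0.01), and in cells under 10000 UMIs it had 0.24 (-1.02 to 1.60).

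Single members of other lists did pass. Cyp26b1, which degrades retinoic acid, stood at 8.44 CPM (6.86 to 10.3, WT) and 21.1 CPM (19.1 to 23.3, KO) and was the 1 of 10 members of that list past the fold. Runx2, the factor of bone precursors and maturing cartilage, stood at 4.09 and 9.84 CPM, 1 of 2 osteogenic genes with enough UMIs, a log2 ratio of 1.27. Its ratio was -0.01 with the rule on thinned cells and 0.09 (-1.14 to 1.39) in cells under 10000 UMIs. Fosb, an immediate early gene that dissociation can induce, stood at 9.64 and 20.7 CPM and was 1 of 13 of its list. The intervals of 8 of the 13 lay above 0 and of 0 below, beside 23% and 15.3% of all genes. In the Uncx-positive cells 3 of 11 passed the fold, Fosb, Junb and Egr1, with a median of 0.79. Of the glycolysis list 1 of 17 was lower, the glucose transporter Slc2a3, at 9.81 and 4.08 CPM. Most of that list went the other way, with 11 intervals above 0 and 3 below and a median of 0.17. In the Uncx-positive cells Slc2a3 was higher in KO, at 2.66 and 8.34 CPM. How far single cells carried the UMIs of Slc2a3 was not examined, and platelet genes also changed direction between these populations, as described below. Eno1, a glycolytic enzyme, was just short of the fold at 320 and 166 CPM, with nearly the same ratio in the 3 populations (-0.95, -0.99 and -1.03). Of the interstitial matrix genes 0 of 20 passed, with a median of 0.16. In other mesenchyme 4 of 20 were lower with a median of -0.32. That median turned to 0.28 without the cells that held markers of other cell types. Col1a1 stood at 229 and 236 CPM in the sclerotome cells without Uncx and at 787 and 388 CPM in other mesenchyme. Lum, the proteoglycan lumican, likewise stood at 86.0 and 80.8 CPM here and at 211 and 54.3 CPM there.

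The genes with the largest ratios rested on few cells. On the higher side were germ cell genes, Dppa3 with all of its 104 UMIs in 1 KO cell and Dppa5a with 98.2% of its 490 KO UMIs in 1 cell, and muscle genes, Acta1 with 89.8% of its 500 KO UMIs in 5 cells, Sln with 88.1% of 387 and Tnnc2 with 88.4% of 424. Lower in KO were platelet genes: Pf4, with 775 CPM (WT) and 24.5 CPM (KO), had 97.7% of its 9091 WT UMIs in 5 cells, and Ppbp, Gp5, Gp9, Alox12, Treml1 and Rgs18 had 99.4% to 100% of theirs in 5 cells. Among the Uncx-positive cells platelet genes were instead higher in KO, with log2 ratios of 5.22 for Pf4 and 7.38 for Gp9. Hist1h2ap, a histone gene, was spread over many cells, with a UMI in 459 WT and 255 KO cells at 877 and 25.9 CPM.

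When only genes with a UMI in at least 10% of the cells of either library were kept, a choice made after the values were seen, 59 of 9524 genes (0.619%) were higher and 66 (0.693%) lower. Several of those with the largest ratios had nearly the same ratio in all 3 populations. Hist1h2ap had log2 ratios of -5.08 here, -5.46 in the Uncx-positive cells and -5.17 in other mesenchyme, Rps29, a ribosomal protein gene, -1.48, -1.46 and -1.47, and AY036118, a non-coding gene, 2.14, 2.12 and 2.01. Mia, a small secreted protein of cartilage, differed more between the populations, at 2.81 CPM (1.94 to 3.95) and 18.3 CPM (16.4 to 20.3), a log2 ratio of 2.70 beside 3.31 and 4.15. Rps29, AY036118 and Mia were named here after their values were seen. The same list of genes was counted in both libraries, and whether the counting differed between them otherwise was not tested. Genes with nearly the same ratio in all 3 populations are part of the 152 and 141 genes counted above.

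**Figure D4:**
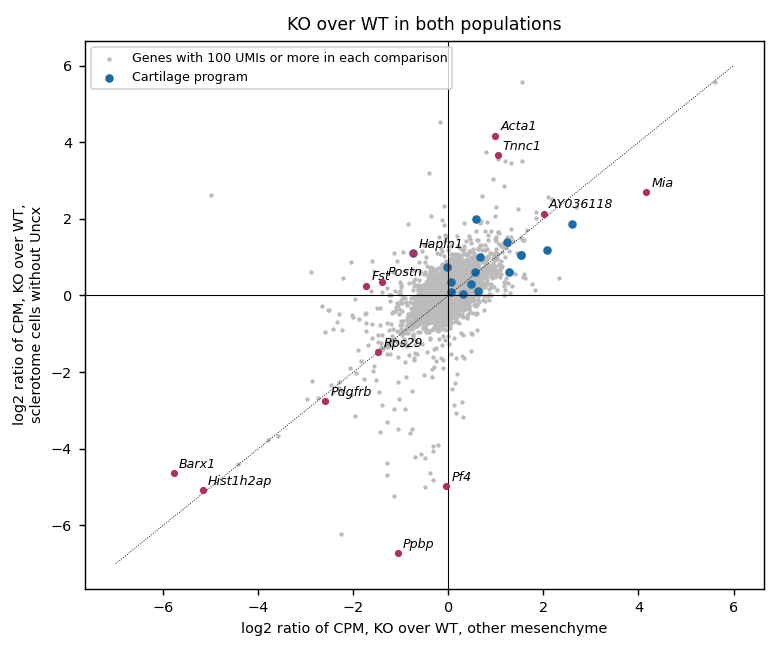
Log2 ratio of KO to WT level of each gene with enough UMIs in other mesenchyme (horizontal axis) and in sclerotome cells without Uncx (vertical axis), 1 point per gene, cartilage genes in blue, sex-linked genes left out. Rps29 and Hist1h2ap lie near the diagonal, and Postn, Fst and Hapln1 have ratios of opposite sign on the axes.

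Hox genes, which mark position along the body axis, differed by paralog group. Of 27 Hox genes with enough UMIs 2 were higher in KO, Hoxd9 and Hoxc11, and 0 lower, with a median of 0.01. The listed genes of group 8 summed to 374 CPM (WT) and 283 CPM (KO), a log2 ratio of -0.40, whereas the group 10 genes summed to 105 and 178 CPM, a log2 ratio of 0.76 (0.66 to 0.85). Groups 9 and 11 had ratios of 0.33 and 0.48, group 12 had -0.53 (-1.04 to -0.01, from 62 and 70 UMIs) and group 13 had -0.24 (-0.53 to 0.05). Group 7 had -0.17 (-0.24 to -0.09). The KO cells thus held less of groups 7 and 8 and more of groups 9 to 11. Hoxa10 stood at 35.8 CPM (32.5 to 39.4, WT) and 66.7 CPM (63.1 to 70.5, KO), and Hoxc10 at 50.9 CPM (46.9 to 55.2) and 83.3 CPM (79.3 to 87.5). In the Uncx-positive cells group 8 had -0.62, group 10 had 1.48, group 12 had -0.91 and group 13 had -1.04, while in other mesenchyme groups 8 and 10 had -0.09 and 0.10. The axial level of each dissected piece is not given in the sources used here, and its part in the differences between the libraries, the cartilage genes included, was not tested.

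**Figure D5:**
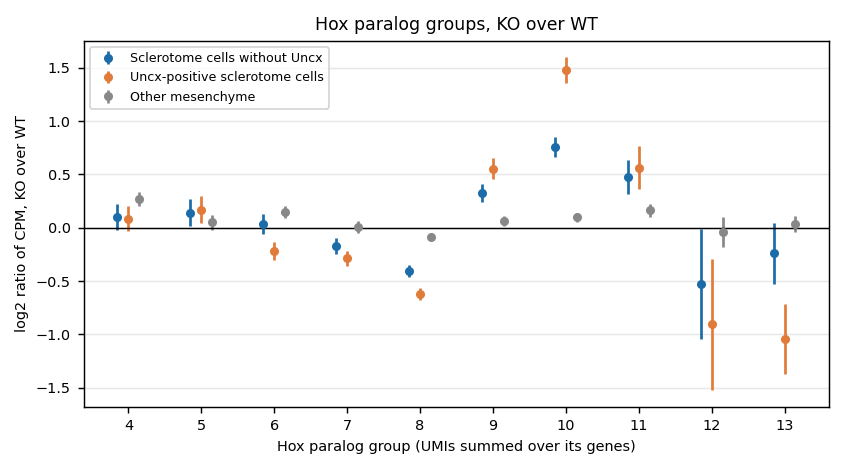
Log2 ratio of KO to WT level for the summed genes of each Hox paralog group in sclerotome cells without Uncx, sclerotome cells with Uncx and other mesenchyme, with exact 95% intervals for counting error. Group 8 lies below 0 and groups 9 to 11 above 0 in both sclerotome populations, and other mesenchyme stays between -0.09 and 0.16 for groups 8 to 11.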

How the data were processed

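Cells of the E11 AGM were profiled with a droplet 3′ single-cell kit, 1 library per genotype, and grouped by the genotype in their labels. Per the labels and the submitters' processing notes, the authors made the deposited raw UMI counts with Cell Ranger 3.1.0 on GRCm38 (mm10). Whether counting used strand is not given in the sources used here, and the droplet filters of the study were not used here.

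Barcodes with at least 2000 UMIs and less than 10% mitochondrial UMIs were kept (9207 WT and 9157 KO barcodes had the UMIs, of which 954 and 992 were removed for mitochondrial content). Doublets were not called; cells with markers of other types were left out in an alternative instead. Raw UMIs were summed over each population and library and given as CPM with exact Poisson intervals, shares with exact Clopper-Pearson intervals and log2 ratios with exact conditional intervals, all at 95% (scipy 1.17.1). With 1 library per genotype no test was made, since cells are not replicates. Ratios used genes with at least 100 UMIs in both populations together. A fold against a count of 0 was bounded at 3 counts. Clusters (scanpy 1.11.5) used cells thinned to 2000 UMIs, 1500 variable genes, 15 principal components, 15 neighbours and a Leiden resolution of 0.6. The scripts were tested on simulated data.

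The members and the gene lists were chosen with earlier results of these data known. Genes named were Pax1, Pax9, Uncx, Pdgfrb, list members with at least 100 UMIs, and the 10 largest ratios in each direction of each comparison, leaving out unnamed gene models and sex-linked, mitochondrial and haemoglobin genes. Nkx3-2 and marker genes at or near 0 were named below that minimum, after their values were seen, and other such choices are marked in the text. Snorc was read under an older symbol, and Aldoa and Hoxd4 were each carried by 2 gene identifiers. Alternatives changed the cell filters, the rule, the scaling (TMM factors from edgeR 4.0.16, medians of ratios, means over cells), free RNA and the gene minimum, and those added after seeing the data left out clusters 1 and 7 or deep, shallow or haemoglobin-rich cells. Promoter sequences came from RefSeq. Results that rest on withheld items are not reported here.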

Additional observations from a re-analysis of the deposited data

Results flagged for a closer look

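Of the list genes, 3 had KO to WT ratios of opposite sign in the sclerotome cells without Uncx and in other mesenchyme, with intervals on either side of 0 and a log2 ratio of at least 1 in size in one population. The differences between the populations were not tested, since there was 1 library per genotype. Fst, an activin antagonist, had a log2 ratio of 0.26 (0.05 to 0.47) in the sclerotome cells without Uncx and -1.73 (-1.87 to -1.58) in other mesenchyme. Postn, a matrix protein of connective tissue, had 0.36 (0.18 to 0.55) and -1.39 (-1.46 to -1.33). Hapln1 had 1.10 (0.76 to 1.46) and -0.75 (-0.90 to -0.59).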

How the results depend on the processing

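Leaving out a replicate was not possible with 1 library per genotype, and depth limits genes under about 100 UMIs. Over the counts, shares, medians and genes recomputed, 653 of 919 values stayed within the counting interval of the value reported (counts within 1.5 times). Among these 919 values, 15 changed sign, 5 of them from a value whose interval lay on 1 side of 0. The 919 values leave out Col9a1, Wwp2, Tcf21 and Bambi, whose sign changes are given below. No paired analysis was possible because each genotype had 1 library. Pdgfrb had no ratio without the KO cells holding its UMIs.

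The share of sclerotome cells without Uncx was higher in KO in every alternative. It was 8.66% (WT) and 13.8% (KO) at 5000 UMIs or more, 5.47% and 8.95% under 5% mitochondrial UMIs, 13.2% and 18.5% at a Pax sum of 1 or more, 5.72% and 9.75% at 3 or more, 13.2% and 21.8% with no Uncx condition, 2.34% and 4.13% with the rule applied to thinned cells, and 10.3% and 14.6% without cells with markers of other types.

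The counts of 152 genes higher and 141 lower in KO became 90 and 58 under 5% mitochondrial UMIs, 69 and 45 with the rule on thinned cells, 86 and 59 without cells with markers of other types, 97 and 54 without cluster 1, 19 and 38 in cells under 10000 UMIs, 996 and 1024 with no gene minimum, and 59 and 66 among genes in 10% of cells. Lower genes numbered 71 without cells over 3 times the median UMIs. Smaller cell sets hold fewer genes with 100 UMIs, and otherwise the cause was not tested.

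The cartilage median of KO to WT was 0.37 with the rule on thinned cells and 0.21 without cluster 7. Against other mesenchyme it was 1.66 (WT) and 1.97 (KO) without cells with markers of other types, 1.88 (WT) with no gene minimum, 1.66 (KO) with the rule on thinned cells and 2.85 (KO) with free RNA subtracted. The interstitial matrix median was 0.062 under 5% mitochondrial UMIs, 0.066 at a Pax sum of 1 or more, 0.091 without KO cells with Pdgfrb, 0.25 without cluster 1 and 0.025 under 10000 UMIs. In other mesenchyme it turned to 0.28 without cells with markers of other types. Col2a1 turned to -0.27 without cluster 7 and to -0.10 with free RNA subtracted, Runx2 to -0.011 with the rule on thinned cells, and Sox9 against Uncx-positive KO cells to 0.19 under 5% mitochondrial UMIs. Sox9 turned to -0.23 without cluster 7 and to -0.17 with free RNA subtracted. The free RNA share rested on summed haemoglobin UMIs and can be too high for most cells, so no conclusion is drawn from values after subtraction. Among other genes Col9a1 turned to -0.33 and Wwp2 to -0.16 without cluster 7, and Tcf21 to 0.24 and Bambi to 0.33 in cells under 10000 UMIs. Cluster 7 is defined by cartilage genes, so leaving it out lowers their ratios by construction, and otherwise the cause was not tested.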
